A study of Homo sapiens with 6 samples.

Results

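The genes that encode the proteins of the cytosolic ribosome were followed with and without interferon beta (IFN-beta) in HaCaT, an immortalised keratinocyte cell line of human skin. Members were the rows of the deposited expression table whose symbol names a protein of the large subunit (the RPL genes with RPLP0, RPLP1 and RPLP2) or of the small subunit (the RPS genes with RPSA and RACK1). Named paralogs such as RPS27L and RPL22L1 were kept, and rows named as pseudogenes were not. This rule found 86 of the 60671 rows of the table, 53 for the large and 33 for the small subunit. It used the symbols alone and no measured value. FAU, which encodes a ribosomal protein fused to a ubiquitin-like protein, bears another name and is given apart.

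Wild-type HaCaT cells were kept for 24 h in serum-free high-glucose DMEM with IFN-beta at 160 ng/mL (3 libraries) or in the same medium without it (3 control libraries). Both groups had therefore been without serum for the same time. The labels name no separate cultures behind the replicate numbers and give the batch as unknown, so a p-value covers only differences among libraries, and these may be technical. HaCaT is a single immortalised line, so the libraries show no variation between people.

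A ribosome is built from a large and a small subunit, each made of ribosomal RNA and many proteins, most of which are needed in equal numbers. The mRNAs of these proteins are among the most abundant in a growing cell, and most begin with a 5' terminal oligopyrimidine (TOP) tract, a C followed by an unbroken run of C and T (U in the RNA). TOP mRNAs are translated and kept stable together, under control of the kinase mTOR and the RNA-binding protein LARP1. Interferons are known to lower protein synthesis in infected cells, through induced sensors of double-stranded RNA such as the kinase PKR.

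The start of the members' genes is shown first, since the TOP tract is the feature that most of them share and that the choice by symbol did not use. RefSeq promoter windows on GRCh38.p14 were matched by symbol for 69 of the 86 members. Each line below gives the 30 bases around a listed start, 10 before it and 20 from it on, read on the gene's own strand. Capitals mark the TOP run, which was counted where a C at the start was followed by at least 4 further C or T. RPLP0, RPS6, RPS3A and RPL21 are shown as members whose falls were larger than the median of the set, and RPS10 as a member that did not fall. RPL22 and RPL22L1 are shown as a pair whose members both carry the run.
RPLP0, chr12:120201092-120201121, minus strand: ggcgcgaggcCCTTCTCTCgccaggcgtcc
RPS6, chr9:19380217-19380246, minus strand: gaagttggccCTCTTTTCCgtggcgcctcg
RPS3A, chr4:151099618-151099647, plus strand: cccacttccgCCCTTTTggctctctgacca
RPL21, chr13:27251548-27251577, plus strand: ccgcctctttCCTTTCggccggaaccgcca
RPS10, chr6:34426050-34426079, minus strand: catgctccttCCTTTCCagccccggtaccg
RPL22, chr1:6199576-6199605, minus strand: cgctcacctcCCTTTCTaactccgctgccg
RPL22L1, chr3:170870176-170870205, minus strand: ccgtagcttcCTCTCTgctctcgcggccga

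The next lines show starts without a run. At their listed starts RPS27L and RPL36AL lack it where their parents RPS27 and RPL36A carry it, and RPL7L1, RPS29 and RPL4 lack it as well. In RPL4 the letters of a tract stand a few bases after the listed start. In RPL36AL a run of C and T begins before the listed start and ends shortly after it. The absence of a match therefore describes the listed base and not the promoter.
RPS27, chr1:153990752-153990781, plus strand: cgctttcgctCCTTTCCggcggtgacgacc
RPS27L, chr15:63157458-63157487, minus strand: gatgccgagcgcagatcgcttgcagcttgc
RPL36A, chrX:101391001-101391030, plus strand: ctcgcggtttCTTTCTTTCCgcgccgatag
RPL36AL, chr14:49620607-49620636, minus strand: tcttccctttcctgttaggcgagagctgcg
RPL7L1, chr6:42879606-42879635, plus strand: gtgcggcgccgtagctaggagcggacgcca
RPS29, chr14:49598691-49598720, minus strand: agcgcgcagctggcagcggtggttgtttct
RPL4, chr15:66504836-66504865, minus strand: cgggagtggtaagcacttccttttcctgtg

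A TOP run at a listed start was found in 48 of the 69 matched members, or 69.6%. The same run stood at 4.07% of the 35116 promoter windows. Counted by gene, as for the members, it was found in 5.14% of the 27305 genes that had a window. Of the 10067 tested genes that had a window, 7.49% carried it. Among the tested members it was found in 47 of 63 that are not paralogs of another member. Of the 5 tested paralogs with a window, RPL22L1 was the single one with a run counted at a listed start. A match describes the letters at an annotated start and is not a measured transcript end.

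Values are FPKM, fragments scaled by gene length and by the reads of the library, as deposited by the authors. The libraries held between 25832158 and 30594527 reads, as recovered from the steps of the FPKM values. All 7 keratinocyte markers were expressed, with a summed level of 2989 to 3379 FPKM in the control and 2706 to 2740 FPKM in the IFN-beta libraries. Of these markers 2 were lower with IFN-beta, KRT15 (log2 change -1.29) and KRT5 (-0.51), and 2 were higher. Markers of melanocytes, fibroblasts, leukocytes and endothelial cells each summed to at most 3.96 FPKM in every library, with 1 gene of each list at a mean of at least 0.5 FPKM, and MLANA, TYR, DCN and LYZ were at 0 in all 6. The endothelial gene CDH5 was higher with IFN-beta (0.731 ± 0.085 against 1.97 ± 0.101 FPKM, SD, n = 3 each), as was COL1A1 of the fibroblast list (1.80 ± 0.461 against 2.69 ± 0.401 FPKM). The part of these markers in the results was not tested. The interferon response genes MX1 (log2 change 7.07), IFIT1 (5.35), ISG15 (5.18) and OAS1 (4.56) were each higher with IFN-beta.

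The members spanned a wide range of levels. RPL41, the smallest ribosomal protein, was highest, with 4340, 4578 and 5261 FPKM in the control libraries. It was followed in control mean by RPL4 (2877 FPKM), RPS2 (2566), RPL35 (2520), RPL19 (2402) and RPLP0 (2227). The SDs of RPS2 (60.8) and RPL35 (146) were larger than the gap between them, and the same held for RPL35 and RPL19 (SD 197), so the order of these 3 neighbours does not exceed their spread. In the small subunit RPS2 was followed by RPS3 (1780 FPKM) and RPS27 (1629). Over the 84 members that could be tested, the median control level was 829 FPKM, with 832 for the large and 787 for the small subunit. Control means of at least 1000 FPKM were found in 33 members, and 10 lay under 100 FPKM. At the low end stood RPS10 with 2.41 FPKM and RPL17 with 7.59 FPKM.

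Not every row carries the reads of its gene alone. RPL10L was listed at 0 in all 6 libraries, and RPL3L, the striated muscle paralog of RPL3, rested on 2 to 12 reads per library. Both were under the minimum mean of 0.5 FPKM and were not tested. In GENCODE release 29 RPS10 shares 39.4% of its exonic bases on the same strand with the read-through gene RPS10-NUDT3, and RPL17 shares 32.7% with RPL17-C18orf32 and small nucleolar RNA genes. Both read-through rows were listed at 0 in every library, as was EEF1G, a gene that every cell uses, so a value of 0 or near 0 in this table need not be a low transcript level. RPL10 overlaps genes on the opposite strand over 52.7% of its exonic bases, and without strand such reads cannot be told apart. How the authors divided reads between overlapping genes is not given in the sources used here.

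With IFN-beta the ribosomal protein genes fell together, and by modest amounts. In the limma test over 15163 genes, 75 of the 84 tested members were lower at an adjusted p under 0.05, none was higher, and 9 did not pass. Across all tested genes 42.4% were called, 19.9% as lower and 22.5% as higher. The median log2 change of the members was -0.38, a change of -22.9%, and the median over all tested genes was 0.01. Among the 75 called members the falls ran from 14.4% (RPS15) to 42.6% (RPL23), and 58 had a log2 change between -0.25 and -0.5. The IFN-beta libraries lay below all 3 control libraries in 77 members. The same was seen in 25.4% of all tested genes, and 54% had groups that did not overlap in either direction.

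Other highly expressed genes give a comparison above a shared minimum level, though they were not matched to the members in level. Of the 1338 other genes with a mean of at least 100 FPKM, 37.1% were called lower, with a median log2 change of -0.05. Above the same minimum 68 of 72 members were called lower, with a median of -0.39. Across the 84 members the log2 change and the log2 mean FPKM had a Pearson r of -0.56 and a Spearman rho of -0.36, and above 100 FPKM the r was -0.22 over 72 members. These are descriptions across genes that share the same 6 libraries.

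**Figure D1:**
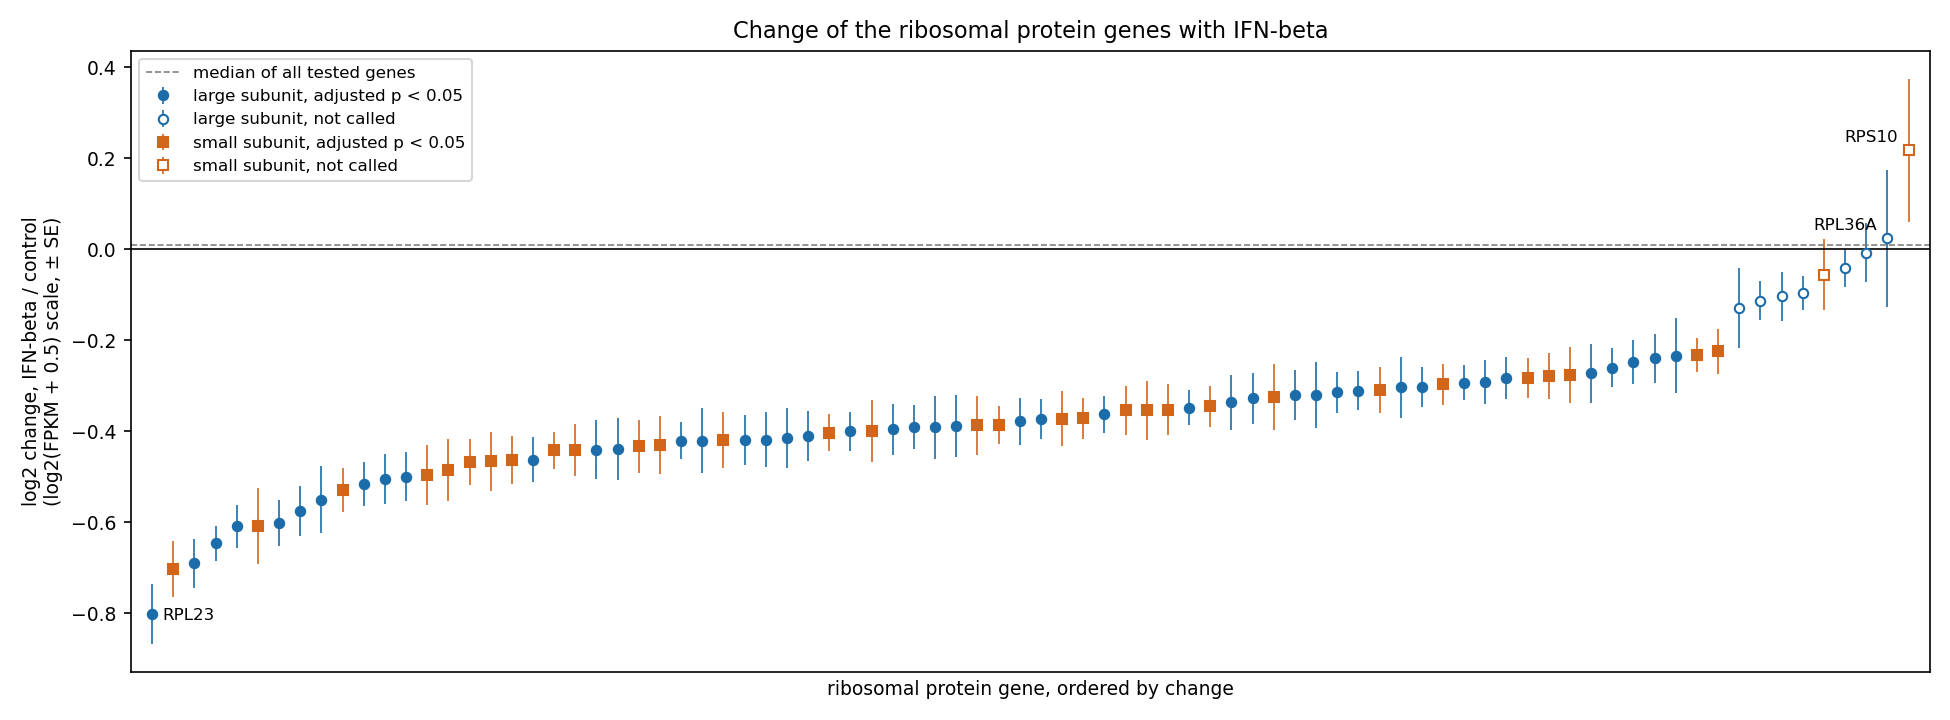
Log2 change with IFN-beta (y axis, log2(FPKM + 0.5) scale, bars are the SE of the fit over 3 against 3 libraries) of the 84 tested ribosomal protein genes, ordered by change along the x axis. Circles are large and squares small subunit genes, filled where the adjusted p was under 0.05; the 75 filled points all lie below 0, and the 9 open points at the right include the 2 above it, RPL36A and RPS10.

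The P stalk, the flexible arm of the large subunit that recruits elongation factors, fell in all 3 of its genes. RPLP0, its anchor on the ribosomal RNA, had 2137, 2204 and 2340 FPKM in the control libraries and 1455, 1422 and 1501 FPKM with IFN-beta. The groups were far apart, and the log2 change was -0.61 ± 0.047 (SE, adjusted p = 1.66e-05). RPLP1 had 1120, 1087 and 1183 FPKM in controls and 800, 829 and 908 FPKM with IFN-beta, a log2 change of -0.42 ± 0.055 (adjusted p = 0.000402). RPLP2 had 1334, 1284 and 1454 FPKM against 1078, 1073 and 1221 FPKM, a log2 change of -0.27 ± 0.065 (adjusted p = 0.00875). The 3 control libraries of each stalk gene were above all 3 IFN-beta libraries.

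RPL5 and RPL11 join the smallest ribosomal RNA before it enters the large subunit, and outside the ribosome they can bind the ubiquitin ligase MDM2. RPL5 had 1234, 1256 and 1381 FPKM in the control libraries and 903, 889 and 912 FPKM with IFN-beta (log2 change -0.52 ± 0.048, adjusted p = 5.52e-05). RPL11 had 929, 957 and 1059 FPKM against 711, 768 and 757 FPKM (log2 change -0.40 ± 0.056, adjusted p = 0.000562). Neither gene's groups overlapped. MDM2 itself rose from 26.3 ± 0.912 to 36.9 ± 0.736 FPKM (SD, n = 3 each), a log2 change of 0.48.

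RPL23, a further protein of the large subunit that can bind MDM2, had the largest fall of all members. It had 1827, 1964 and 2189 FPKM in controls and 1168, 1095 and 1159 FPKM with IFN-beta, a log2 change of -0.80 ± 0.065 (adjusted p = 2.25e-05). RPL7 had 1489, 1475 and 1669 FPKM against 950, 935 and 982 FPKM, a log2 change of -0.69 ± 0.054 (adjusted p = 1.73e-05). RPL21 had 1375, 1368 and 1435 FPKM against 909, 884 and 875 FPKM, a log2 change of -0.65 ± 0.039 (adjusted p = 3.37e-06). In these 3 genes every control library was at least as far above the highest IFN-beta library as the controls were from each other. After RPLP0, described above, RPL9 (log2 change -0.60), RPL6 (-0.58) and RPL24 (-0.55) came next in the large subunit.

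In the small subunit the largest fall was that of RPS3A. It had 1200, 1283 and 1437 FPKM in the control libraries and 806, 789 and 805 FPKM with IFN-beta (log2 change -0.70 ± 0.062, adjusted p = 3.6e-05). RPS29, which had no TOP run at its listed start, had 141, 130 and 159 FPKM against 87.3, 90.6 and 104 FPKM (log2 change -0.61 ± 0.083, adjusted p = 0.000478). RPS6, the small subunit protein that S6 kinases phosphorylate when mTOR is active, had 849, 831 and 914 FPKM against 582, 588 and 626 FPKM (log2 change -0.53 ± 0.048, adjusted p = 4.66e-05). None of the 3 overlapped between groups. RPS27A, which encodes ubiquitin fused to a small subunit protein, went from 900 ± 83.3 to 636 ± 30.2 FPKM (SD, n = 3 each), a log2 change of -0.50. RPS20 (-0.48) and RPSA (-0.47), which is also known as the laminin receptor precursor, completed the 6 largest falls.

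Proteins at the mRNA entry and the head of the small subunit fell in 4 of 5 genes, with a median log2 change of -0.35 over all 5. RPS3 and RPS2, which line the mRNA entry channel, had log2 changes of -0.44 and -0.35. RPS2 went from 2566 ± 60.8 to 2020 ± 77.9 FPKM (SD, n = 3 each). RACK1, a scaffold for signalling proteins on the head of the subunit, had 1064, 1024 and 1020 FPKM in controls and 871, 882 and 891 FPKM with IFN-beta. Its groups were tight and apart, and its log2 change of -0.23 ± 0.037 (adjusted p = 0.00108) was the second smallest among the called members. RPS10 was the gene of this group that did not pass.

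Of 7 proteins around the exit tunnel, through which the new peptide leaves, 5 were lower, and the median log2 change was -0.29. RPL4, whose loop reaches into the tunnel, went from 2877 ± 80.0 to 2180 ± 46.5 FPKM (SD, n = 3 each), a log2 change of -0.40. RPL35 and RPL39, at the tunnel's exit, both had a change of -0.32, and RPL22 had one of -0.29. RPL23A, the docking site of the signal recognition particle, had 1901, 1735 and 2230 FPKM in controls and 1692, 1587 and 1682 FPKM with IFN-beta. Its control libraries were spread widely, and its log2 change of -0.23 ± 0.082 (adjusted p = 0.0468) passed narrowly. The call was lost in 10 of the 19 alternative settings, and the value was -0.14 without the third control library (adjusted p = 0.0546) and -0.32 without the second (adjusted p = 0.014). RPL17 and RPL26, also at the tunnel, did not pass.

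Diamond-Blackfan anaemia, an inherited failure of red cell production, is caused by mutations in ribosomal protein genes. Of 11 such members, 8 were lower, with a median log2 change of -0.37 over all 11. RPS19, the gene most often affected in that disease, went from 436 ± 25.6 to 360 ± 13.3 FPKM (SD, n = 3 each), a log2 change of -0.28, and RPL35A had a change of -0.50. RPS10 and RPL26 were among those that did not pass. RPL13A, known from a complex that silences inflammatory mRNAs in myeloid cells under interferon gamma, had 811, 786 and 880 FPKM in controls and 617, 623 and 663 FPKM with IFN-beta. Its log2 change was -0.38 ± 0.051 (adjusted p = 0.000457), at the median of the set.

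Of the 9 members that did not pass the test, 5 had a mean under 100 FPKM, against 7 of the 75 called members. Likewise 5 of the 9 shared at least 10% of their exonic bases with another gene on the same strand, against 3 of the 75. The effect of low depth and of shared exons on these values was not tested.

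RPS10 had 2.70, 2.19 and 2.34 FPKM in controls and 3.80, 2.38 and 2.61 FPKM with IFN-beta, on 47 to 89 reads per library. Its groups overlapped, and the log2 change was 0.22 ± 0.157 (adjusted p = 0.297). It was 0.04 without the first and 0.33 without the second IFN-beta library. RPL36A had 20.1, 21.3 and 14.9 FPKM against 22.2, 15.5 and 19.5 FPKM, a log2 change of 0.02 ± 0.152 (adjusted p = 0.915). The sign of that value turned with the scaling and with single libraries. RPL17 had 7.92, 7.61 and 7.25 FPKM against 7.27, 7.68 and 7.71 FPKM, a log2 change of -0.01 ± 0.066 (adjusted p = 0.941), whose sign also turned with the scaling. In RPL17 and RPL36A the IFN-beta values lay within or around those of the controls.

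RPL26 had 44.5, 48.4 and 38.0 FPKM in controls and 36.3, 41.3 and 41.5 FPKM with IFN-beta, a log2 change of -0.13 ± 0.088 (adjusted p = 0.267). The third control library was lower there than 2 of the IFN-beta libraries, and without that library the log2 change was -0.22 and passed (adjusted p = 0.0284). It was -0.05 without the second control and -0.07 without the first IFN-beta library.

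Higher up the scale, 4 members that did not pass rested on at least 3149 reads per library. RPL36AL had 269, 274 and 289 FPKM in controls and 259, 275 and 275 FPKM with IFN-beta, a log2 change of -0.04 ± 0.042 (adjusted p = 0.464) that was 0.0047 after rescaling to the same sum. RPL28 had 276, 281 and 276 FPKM against 262, 249 and 267 FPKM, a log2 change of -0.10 ± 0.037 (adjusted p = 0.0636). RPL36 had 561, 556 and 592 FPKM against 511, 520 and 550 FPKM, a log2 change of -0.11 ± 0.043 (adjusted p = 0.064). In RPL28 and RPL36 all 3 IFN-beta libraries lay below the controls, and both passed with limma voom on recovered reads and with median-of-ratios size factors. RPL7L1 is described with the paralogs.

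**Figure D2:**
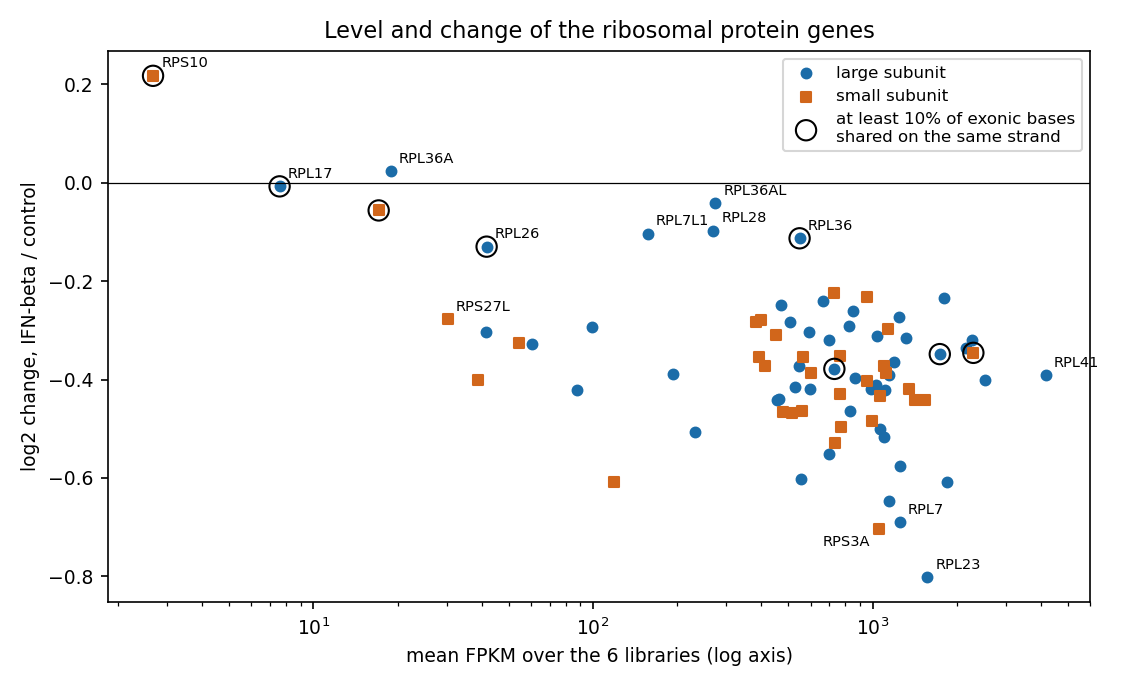
Mean FPKM over the 6 libraries (x axis, log scale) against the log2 change with IFN-beta (y axis) for the 84 tested members; circles are large and squares small subunit genes, and black rings mark the 8 that share at least 10% of their exonic bases with another gene on the same strand. The members that were not called lie at the upper edge, with RPS10, RPL17, RPL36A and RPL26 at low levels.

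Both subunits were lower, by nearly the same median. In the large subunit 44 of 51 tested genes were lower, with a median log2 change of -0.37. In the small subunit 31 of 33 were lower, with a median of -0.39. The ratio of summed FPKM of the large to that of the small subunit was 1.93, 1.92 and 1.94 in the control libraries and 1.94, 1.92 and 1.92 with IFN-beta. The ratio of the IFN-beta to the control mean of these values was 0.998. Members are not replicates, so no test was made between the subunits.

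The set's share of all FPKM was 10.3%, 10.3% and 11.2% in the control libraries and 8.20%, 8.13% and 8.45% with IFN-beta. The mean fell from 10.6% ± 0.545 to 8.26% ± 0.168 (SD, n = 3 each), a difference of -2.35 percentage points, and the groups did not overlap. As a share of reads the set took 6.31%, 6.36% and 6.97% in controls and 4.88%, 4.83% and 5.05% with IFN-beta. FPKM are relative to the total of each library, so fewer of these mRNAs per cell and more RNA of other genes cannot be told apart. The share of reads from mitochondrially encoded genes moved with the groups as well, from 6.45%, 6.63% and 6.14% to 5.01%, 4.64% and 4.53%. Its part in the fall was not tested. After rescaling without those genes 75 members were lower, a count that does not measure that part.

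The members also moved together within the control group. The third control library was the highest of the controls in 74 of the 84 members, the first in 7 and the second in 3. The third IFN-beta library was the highest of its group in 63, the first in 14 and the second in 7. Without the third control library the median log2 change of the members was -0.33 and 75 were lower. The third control library also had the fewest reads and the fewest genes above 0, which were 23262 there and up to 24806 in the others.

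**Figure D3:**
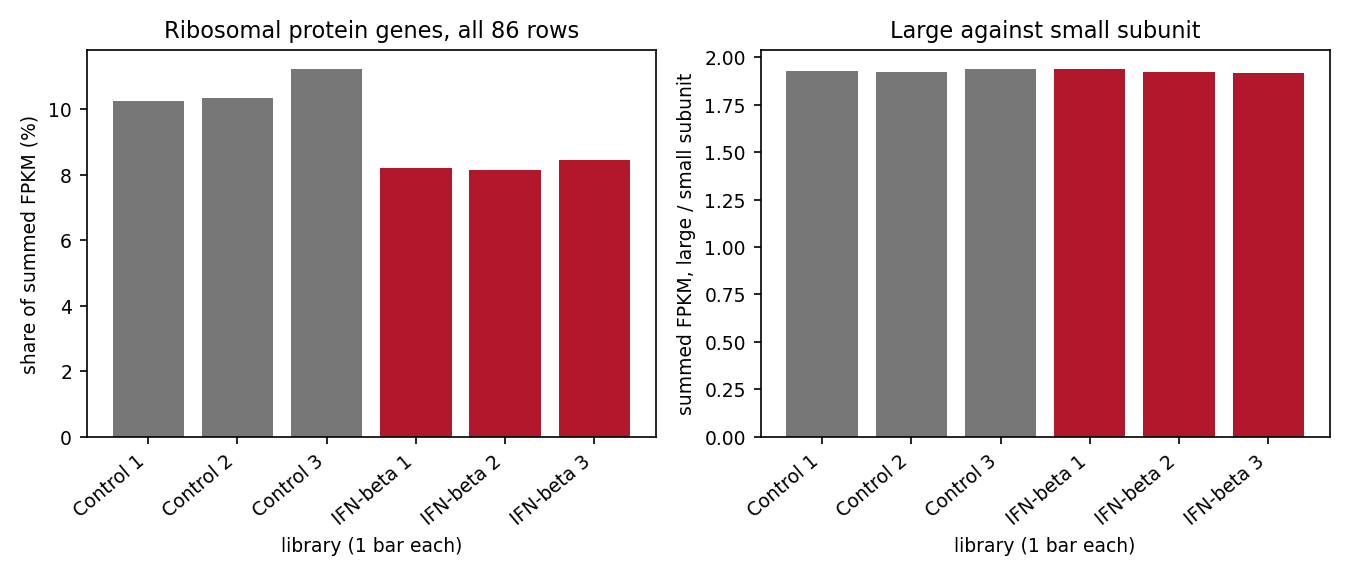
Left, share of each library's summed FPKM held by the 86 ribosomal protein rows (y axis, percent, 1 bar per library); right, summed FPKM of the large over that of the small subunit. The 3 control bars on the left stand between 10.3% and 11.2% and the 3 IFN-beta bars between 8.13% and 8.45%, and the 6 bars on the right lie between 1.92 and 1.94.

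Several ribosomal proteins have a paralog encoded by a gene of its own, which can take the parent's place in the ribosome or act outside it. The table held 8 such paralogs, of which 6 were tested, and 4 of these were lower with a median log2 change of -0.29. Among the 78 other members 71 were lower, with a median of -0.39. To see whether a pair moved apart, the ratio of paralog to parent was compared over libraries, with an exact permutation test adjusted over 6 pairs. The smallest p that 3 against 3 libraries can give is 0.1, so no pair could pass.

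RPS27L, a paralog that differs from RPS27 mainly near the start of the protein, had 31.5, 32.2 and 35.8 FPKM in controls and 27.4, 28.7 and 25.7 FPKM with IFN-beta. The groups did not overlap, and the log2 change was -0.28 ± 0.062 (adjusted p = 0.00648). Its parent RPS27 stood far higher, with 1582, 1538 and 1769 FPKM against 1165, 1187 and 1239 FPKM (log2 change -0.44 ± 0.057, adjusted p = 0.000352). The level of RPS27L was 2.04% ± 0.053 of that of RPS27 in controls and 2.28% ± 0.182 with IFN-beta (SD, n = 3 each). The log2 ratio changed by 0.17 ± 0.070 (SE), the groups overlapped (exact permutation p = 0.2, adjusted 0.4), and the value was -0.07 after quantile normalization. The coding sequences, both of 252 bases, were identical at 77.8% of positions. The longest identical run was 20 bases. Their first 60 coding bases are shown from GENCODE release 29, with capitals at the 18 positions where the pair differ.
RPS27L: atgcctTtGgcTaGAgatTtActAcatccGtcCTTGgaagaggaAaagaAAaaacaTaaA
RPS27: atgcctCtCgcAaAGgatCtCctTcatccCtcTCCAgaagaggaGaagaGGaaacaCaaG

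RPL7L1 and RPL7 were the pair with the largest change of ratio and the single pair whose ratios did not overlap between groups. RPL7L1 is a distant relative of RPL7 that takes part in ribosome assembly, with 53.6% of aligned coding positions identical. It had 155, 161 and 172 FPKM in controls and 148, 144 and 162 FPKM with IFN-beta, a log2 change of -0.10 ± 0.054 (adjusted p = 0.159). RPL7, by contrast, had a log2 change of -0.69. The level of RPL7L1 relative to RPL7 was 10.4%, 10.9% and 10.3% in controls and 15.5%, 15.4% and 16.5% with IFN-beta. The log2 ratio changed by 0.59 ± 0.039 (SE, exact permutation p = 0.1, the smallest possible, adjusted 0.4), and it lay between 0.38 and 0.61 in the alternatives tried.

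RPL22L1 and RPL22 were the pair at most nearly equal levels, and both fell. RPL22L1 had 94.2, 95.1 and 113 FPKM in controls and 73.8, 72.2 and 79.2 FPKM with IFN-beta (log2 change -0.42 ± 0.072, adjusted p = 0.00167). RPL22 had 105, 110 and 113 FPKM against 89.0, 89.3 and 89.1 FPKM (log2 change -0.29 ± 0.038, adjusted p = 0.000367). The ratio went from 92.1% ± 7.48 to 84.2% ± 4.18 (SD, n = 3 each), a change of the log2 ratio of -0.13 ± 0.078, with overlapping groups (exact permutation p = 0.2, adjusted 0.4). Without the third control library it was -0.06.

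RPL39L, known mainly from the testis, was expressed at 47.6, 41.0 and 49.0 FPKM in controls and 36.5, 35.8 and 38.7 FPKM with IFN-beta (log2 change -0.30 ± 0.068, adjusted p = 0.00666). RPL39 had 745, 710 and 878 FPKM against 599, 619 and 643 FPKM (log2 change -0.32 ± 0.073, adjusted p = 0.00731). The ratio was 5.92% ± 0.420 in controls and 5.96% ± 0.162 with IFN-beta (exact permutation p = 0.9, adjusted 0.9). The pair's coding sequences are 94.8% identical over 153 bases with an identical run of 44 bases. Reads from the abundant parent could therefore be counted for the paralog, and the level of RPL39L is uncertain. The first 60 coding bases show how close they are, with capitals at the 2 differences.
RPL39L: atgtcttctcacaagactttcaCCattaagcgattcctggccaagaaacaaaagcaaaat
RPL39: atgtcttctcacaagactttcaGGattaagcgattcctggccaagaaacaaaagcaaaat

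In the other 2 tested pairs the paralog's row was higher than the parent's. RPL26L1 had 65.0, 65.1 and 72.7 FPKM in controls and 51.9, 52.7 and 56.6 FPKM with IFN-beta (log2 change -0.33 ± 0.056, adjusted p = 0.0016). It stood at 157% of RPL26 in controls and at 136% with IFN-beta, with a change of the log2 ratio of -0.20 ± 0.159 (exact permutation p = 0.3, adjusted 0.45). That change was -0.05 without the third and -0.30 without the second control library. RPL36AL stood at 1523% ± 367 of RPL36A in controls and at 1451% ± 307 with IFN-beta (SD, n = 3 each, exact permutation p = 0.7, adjusted 0.84). The change of its log2 ratio of -0.06 ± 0.253 turned sign without the third control or the first IFN-beta library. RPL26 and RPL36A share exons with other genes (14.3% and 8.40% of their exonic bases). The coding sequences of RPL36AL and RPL36A are 89.9% identical, with an identical run of 60 bases. Those of RPL26L1 and RPL26 are 84.1% identical, with a run of 20 bases. Reads of one gene of a pair could be counted for the other, so these ratios are uncertain.

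**Figure D4:**
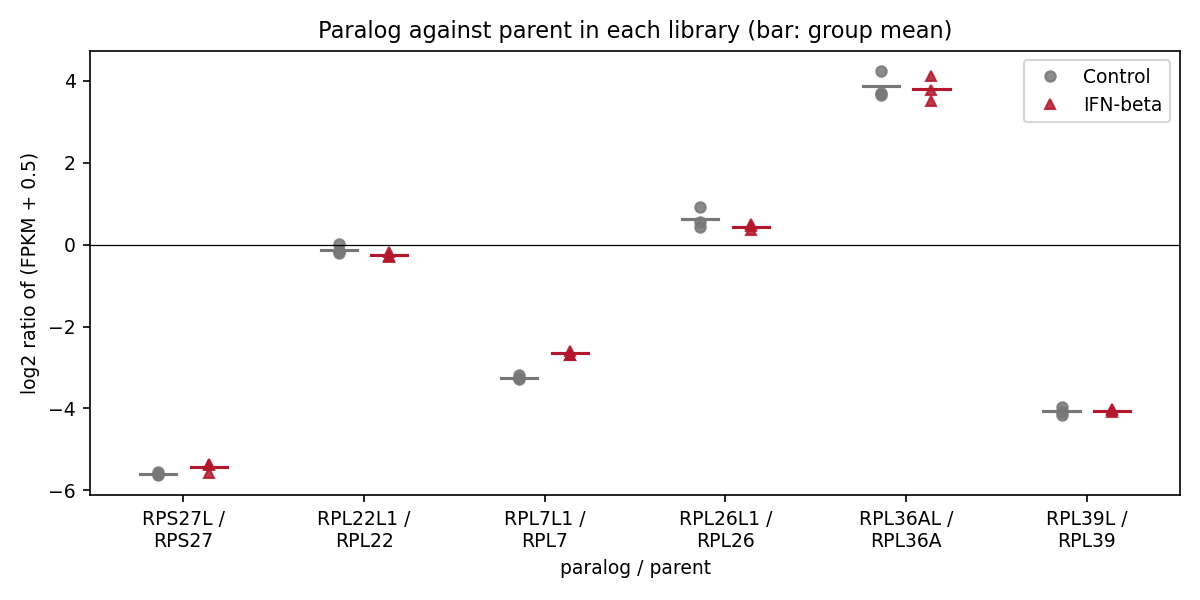
Log2 ratio of paralog to parent, both as FPKM + 0.5 (y axis), for the 6 tested pairs (x axis); each point is a library, grey circles are controls, red triangles IFN-beta, and the bar is the group mean. RPL7L1 over RPL7 is the pair in which all 3 IFN-beta points lie apart from the 3 controls.

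The human genome holds many processed pseudogenes of ribosomal protein genes, copies of their mRNAs that have been inserted elsewhere and share most of their sequence. The table had 1242 rows named as such pseudogenes, and 78 of the 86 members had at least 1. Over all tested genes 19.9% were lower and 22.5% higher. Of the 89 pseudogene rows that were tested 43 were lower and 6 higher, with a median log2 change of -0.29. Among the 38 with a mean of at least 10 FPKM, 31 were lower and none was higher, with a median of -0.42. RPL7P1 had a log2 change of -0.71 where RPL7 had -0.69, and RPLP0P6 one of -0.53 where RPLP0 had -0.61. Other rows differed more from their parents, as RPL7P9 (-0.45), RPL32P3 (-0.02 where RPL32 had -0.41) and RPL22P1 (-0.64 where RPL22 had -0.29). Reads of a parent that match its copy could be counted in either row, and how the authors placed them is not given in the sources used here.

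RPS28 had a far lower FPKM than its copy. Its row held 60.5 ± 4.07 FPKM in controls and 48.2 ± 4.52 FPKM with IFN-beta (SD, n = 3 each, log2 change -0.33 ± 0.073, adjusted p = 0.00654), a level far under that of most members. The row of its pseudogene RPS28P7 held 2666 ± 276 FPKM in controls and 1980 ± 84.9 FPKM with IFN-beta, a log2 change of -0.42 ± 0.073 (adjusted p = 0.00169). RPS28P7 was the single row of the 38 that exceeded its parent, so the level of RPS28 itself is uncertain. It was chosen for description after the values were seen, as were the other pseudogenes named here. RPL22P1, with a mean of 82.7 FPKM, reached 83.3% of RPL22.

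Members with and without a TOP run are set side by side. Of the 48 members with the run at a listed start 43 were lower, with a median log2 change of -0.39. Of the 20 tested members with a window but no run 17 were lower, with a median of -0.37. Outside the set the 706 tested genes with a run had a median of -0.04, with 27.2% lower and 19.0% higher. The 9293 tested genes without it had a median of 0.01, with 21.3% lower and 24.8% higher. No test was made of these differences. Among the members without a counted run, RPL4, RPL9, RPL10A and RPS26 have a stretch of C and T a few bases after the listed start. The members are therefore split by the letters at listed starts, and both groups may hold TOP mRNAs.

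Genes whose mRNAs are known to be of the TOP class but that encode no ribosomal protein were also mostly lower. Of 15 tested, 13 were lower and none was higher, with a median log2 change of -0.30, beside 19.9% lower over all tested genes. EEF1G, listed at 0, was not tested. Most genes of this list serve the same process, as elongation factors, subunits of initiation factor eIF3 and the poly(A)-binding protein. EEF1A1, which brings aminoacyl-tRNA to the ribosome, had 4128, 4305 and 4610 FPKM in controls and 3218, 3083 and 3195 FPKM with IFN-beta, a log2 change of -0.46 ± 0.053 (adjusted p = 0.000181). EIF3E had a change of -0.50, EEF1B2 of -0.46 and PABPC1 of -0.43. EEF2, the translocation factor, did not pass, with 2034 ± 145 FPKM in controls and 1962 ± 19.8 FPKM with IFN-beta (SD, n = 3 each, adjusted p = 0.502), and neither did EIF2S3 (log2 change 0.03). FAU was lower, with a log2 change of -0.28 (adjusted p = 0.0191).

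The genes that make ribosomal RNA and assemble ribosomes are set beside all tested genes, of which 19.9% were lower and 22.5% higher. Of 15 genes of RNA polymerase I, which makes the large ribosomal RNAs, and its factors, 4 were lower and 3 higher, with a median log2 change of -0.04. The polymerase subunit POLR1B was higher (0.34), and the factor TAF1B (-0.32) and the subunit POLR1H (-0.32) were lower. Among 40 tested ribosome assembly factors 9 were lower and 7 higher, with a median of 0.02, counts near the shares over all genes. GRWD1 (0.37), a chaperone of RPL3, and BYSL (0.36), a factor of the small subunit, were higher. NPM1 (-0.32), the abundant nucleolar phosphoprotein, and EBNA1BP2 (-0.29) were lower. No test was made between these lists and the members.

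Among 15 regulators of ribosomal protein genes and TOP mRNAs 6 were higher and 2 lower, beside 22.5% higher and 19.9% lower over all tested genes. MYC, a transcription factor that drives ribosome production, had 120, 111 and 105 FPKM in controls and 205, 189 and 215 FPKM with IFN-beta, a log2 change of 0.85 ± 0.061 (adjusted p = 9.59e-06). Its partner MAX had a change of 0.44. EIF4EBP1, a translation repressor that mTOR inactivates, was lower (-0.18). LARP1 (log2 change 0.11, adjusted p = 0.0822) did not pass. These are mRNA levels and say nothing of the activity of mTOR or its targets.

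The mitochondrial ribosome, whose proteins are encoded by a separate set of nuclear genes, was compared last. Of 77 tested MRP genes 49.4% were called lower (38 genes) and 6 were higher, with a median log2 change of -0.15. Over all tested genes 19.9% were lower and 22.5% higher. In the large subunit of the mitochondrial ribosome 26 of 48 were lower, and in its small subunit 12 of 29. The interquartile range of log2 changes ran from -0.44 to -0.29 in the cytosolic set and from -0.28 to -0.03 in the mitochondrial one.

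**Figure D5:**
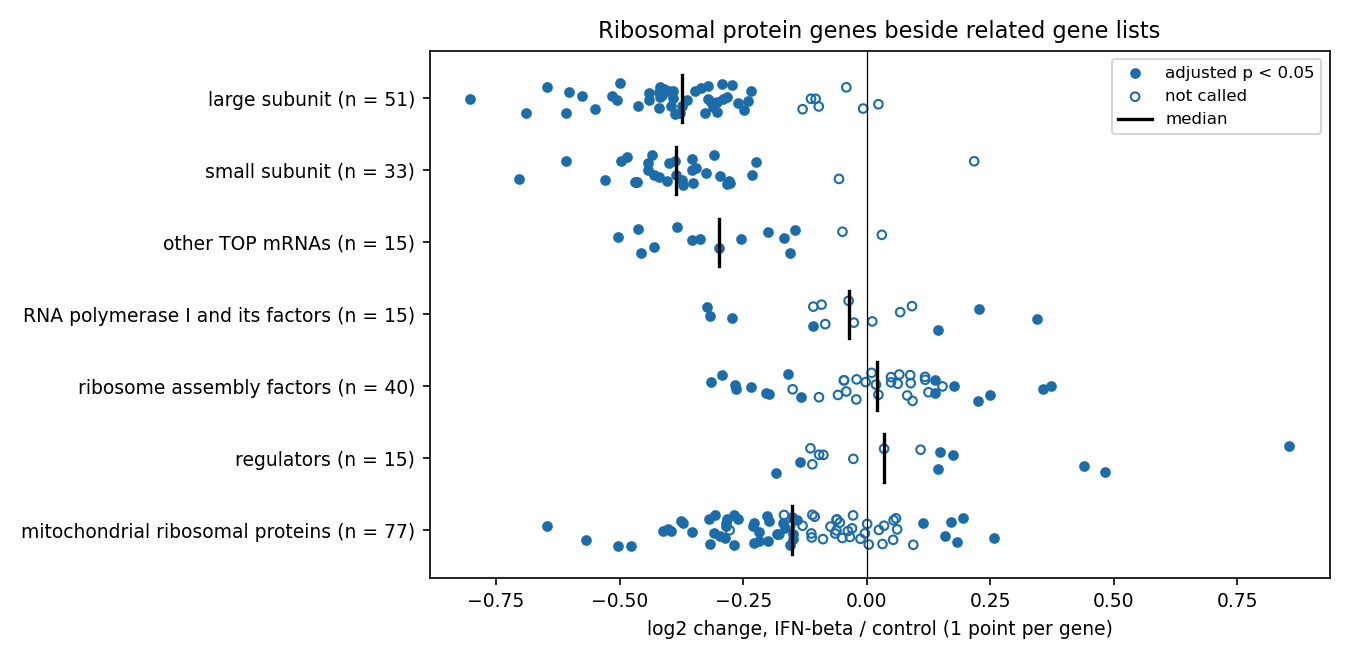
Log2 change with IFN-beta (x axis) of each tested gene (1 point per gene, filled where the adjusted p was under 0.05, vertical bar at the median) in 7 lists (y axis, with the number of tested genes). The medians lie at -0.37 and -0.39 for the cytosolic subunits, at -0.30 for the other TOP mRNAs, and between -0.04 and 0.04 for RNA polymerase I, the assembly factors and the regulators.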

How the data were processed

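RNA-seq was analysed from 6 libraries of HaCaT cells, 3 with IFN-beta and 3 controls, grouped by their titles. The authors deposited 1 table of FPKM for 60671 genes, and its 6 value columns were matched to samples by name. CLC Genomics Workbench 11.0.1 is named per the labels' protocols, which give both an RNeasy kit and TRIzol for the RNA. The submitters' processing notes name the mouse builds GRCm38 and mm10 and the series' design text describes mice, but 60671 of the 60671 identifiers are human, so the build of the table is not stated and its coordinates are not printed. Aligner, counting program and handling of strand: not given in the sources used here.

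Whole reads were recovered from the FPKM steps for 30506 of 30507 genes with a value (within 0.01 reads). They summed to 99.7% of the totals. Reads are not independent molecules.

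The test was limma 3.58.1 (R 4.3.3; lmFit and trended eBayes, two-sided) on log2(FPKM + 0.5), run over 15163 genes with a mean of at least 0.5 FPKM, called at a Benjamini-Hochberg adjusted p under 0.05. This scale understates changes of low genes. Paralog ratios were tested with a two-sided exact permutation test (scipy 1.17.1). Exon sharing and coding sequences were taken from GENCODE release 29 (GRCh38), and promoter windows from RefSeq (GRCh38.p14). POLR1H was matched through an older symbol. The fit was tested on simulated data for the IFN-beta against control comparison, over 15163 genes: it called 36% of 50 genes with a 1.25-fold change, 68% at 1.5-fold, 92% at 2-fold, and 10 of 14963 unchanged genes.

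The members and all lists were chosen with earlier results of these data known. Any member could be named, though a few genes are counted but not reported here one by one; of the other lists the rule took up to 4 called genes by size of change and up to 2 by level that did not pass. Same-numbered libraries did not deviate together (r = -0.052, -0.098 and -0.058), so the numbers were not used as pairs. Alternatives are given in the closing section.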

Additional observations from a re-analysis of the deposited data

How the results depend on the processing

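Between 72 and 77 members were lower in the 19 alternatives to the main analysis that kept all members, and none was higher in any. Those alternatives were pseudocounts of 0.1 and 1, no filter and a minimum of 2 FPKM, 5 scalings, eBayes without trend or robust, limma voom on recovered reads, the replicate block, and each library left out. Of the 75 lower members 70 passed in all 19. RPL23A missed the threshold in 10 of them, and RPL35, RPL41, RPLP2 and 1 further member after quantile normalization alone. With the replicate number as a block 76 members were lower, and RPL36 passed (adjusted p = 0.0424). Chosen after seeing the data, a minimum of 100 FPKM left 68 of 72 lower, and leaving out members with at least 10% shared exons left 72 of 76 lower. Scaling moved the balance over all genes: 53.2% of called genes were higher in the main fit, 63.2% with libraries rescaled to equal sums (74 members lower) and 41.3% with quantile normalization (72 members lower). Quantile normalization gave a median log2 change of the members of -0.28, a large minus small subunit difference of 0.031 (main 0.014), a change in the share of FPKM of -1.64 points, and changes of log2 ratio of -0.067 for RPS27L and -0.074 for RPL39L (main 0.17 and 0.016). Quantile normalization gives every library the same distribution of values, and the part of this in these differences was not tested. Leaving out each library in turn gave 74 to 75 lower members, a median of -0.41 to -0.33, a subunit difference of 0.0087 to 0.026, a share change of -2.52 to -2.03 points, and changes of log2 ratio from -0.22 to 0.12 for RPL36AL and from -0.025 to 0.073 for RPL39L. Some signs turned among members that did not pass, and the cause was not tested. The log2 change of RPL36A was -0.0021 with median-of-ratios size factors and -0.017 with quantile normalization. With equal sums that of RPL36AL was 0.0047 and that of RPL17 0.036, and RPL17 had 0.0064 when rescaled without mitochondrially encoded genes and 0.00088 without the members. Over the single libraries left out, RPL36A ran from -0.13 to 0.16 and RPL17 from -0.038 to 0.022. RPS10 rested on 47 to 89 reads per library, and the effect of low depth on its value was not tested.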
